A study of Mus musculus with 6 samples.

Results

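The respiratory chain of the inner mitochondrial membrane and its ATP synthase were examined in Blimp1-deficient (CKO) and Blimp1-sufficient (Ctrl) peripherally induced regulatory T (pTreg) cells. Members were genes whose annotated symbol begins with Nduf, Uqcr, Cox4 to Cox8 or Atp5, or is Sdha, Sdhb, Sdhc or Sdhd. Although members were chosen with earlier results of these data known, the rule itself used names only and no measured value. It found 87 genes of the 19057 with an annotated symbol on the array, and 76 of these were above background on at least 2 of 6 arrays, among 9593 genes in all that were. By complex, 33 of 35 genes of complex I, 7 of 8 assembly factors of complex I, 3 of 4 of complex II, 6 of 7 of complex III, 11 of 17 of complex IV and 16 of 16 of complex V were measured. The complex I count includes the pseudogene Ndufs5-ps, and Ndufa4 is placed in complex IV, where current naming puts it.

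RNA came from 3 CKO and 3 Ctrl samples of CD4+ Foxp3-GFP+ cells, hybridized to Illumina mouse bead arrays. Naive T cells of both genotypes, told apart by Thy1.2 (CKO) and Thy1.1 (Ctrl), were transferred together into RAG1-/- mice, which have no T or B cells of their own, and sorted from them weeks later. The CKO donors were Prdm1flox/flox CD4-Cre+ and the Ctrl donors Prdm1+/+ CD4-Cre+, so both carried the Cre transgene, and the CD4 promoter deletes Prdm1 in every T cell, not in Treg cells alone. The labels differ on the kind of cell, with iTreg as well as peripheral Treg in use, and those of replicates 2 and 3, CKO and Ctrl alike, carry the letters P+I, which those of replicate 1 lack. No age or sex of the animals was used here.

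Blimp1, encoded by Prdm1, is a transcriptional repressor that shapes the effector state of T cells. Complexes I and II pass electrons from NADH and succinate to ubiquinone, complex III passes them on to cytochrome c and complex IV to oxygen, and complex V makes ATP from the proton gradient that complexes I, III and IV build. Treg cells are known for their reliance on oxidative phosphorylation. Most of the subunits are encoded in the nucleus, and their promoters are known to carry sites of NRF1, of the Ets-family factor GABP and of YY1.

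Values are linear intensities that were quantile normalized over the 6 arrays, and the background level of an array, 6.18 to 9.55, was set by 1504 probes of olfactory and vomeronasal receptors, at their 95th percentile. Between 32.3% and 38.3% of probes were above it. Cd3e, Cd3g, Cd4, Foxp3, Il2ra, Ctla4 and Ikzf2 were above background on 6 of 6 arrays, although Cd4, by which the cells were sorted, was dim at 17.2 to 34.4 in CKO and 28.7 to 62.8 in Ctrl cells. The 4 Treg markers summed to 4750, 5078 and 3896 in CKO cells, against 10452, 9421 and 8086 in Ctrl cells, with no overlap. Ctla4, which made up most of each sum, and Ikzf2 were lower on every CKO array than on any Ctrl array. Foxp3 and Il2ra overlapped. Foxp3 had 433, 165 and 216 in CKO cells, against 480, 212 and 141 in Ctrl cells. Il2ra had 550, 578 and 879 in CKO cells, against 632, 1332 and 1232 in Ctrl cells. The 3 T cell markers summed to 5165, 4394 and 4332 in CKO cells, against 8517, 5072 and 6249 in Ctrl cells, lower in CKO in each pair. The targeted gene Prdm1 had 561, 341 and 704 in CKO cells, against 18.9, 50.9 and 49.2 in Ctrl cells. The place of the probe relative to the deleted part was not given, so its level does not show whether the gene was deleted. Il10, which Blimp1 is known to promote in T cells, had 128, 99.2 and 106 in CKO cells, against 5935, 3203 and 5904 in Ctrl cells (adjusted p = 0.00101, limma). Of 6 myeloid markers 4 were above background on every array (Lyz2, Cd14, S100a8 and S100a9), Csf1r was on 5 and Itgam on 0, and their summed intensity was 12301, 1644 and 22050 in CKO cells, against 22524, 2434 and 31482 in Ctrl cells. The 2 erythroid markers summed to 744, 563 and 1635 in CKO cells, against 1294, 539 and 1899 in Ctrl cells. Cd8b1 lay between 544 and 1031 while Cd8a and both NK markers (Ncr1 and Klrb1c) were above background on 0 arrays. Of the 3 epithelial markers Epcam was above it on 0, Krt8 on 2 and Krt18 on 3 arrays, with sums of 23.6, 24.4 and 30.9 in CKO cells, against 13.3, 3.69 and 71.5 in Ctrl cells. The B cell marker Ms4a1 was above background on 3 arrays, at no more than 12.0. The part of these transcripts in the results below was not tested, and in bulk RNA fewer cells of a type and less RNA per cell cannot be told apart.

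Promoter sequence was available for 72 of the 87 members, as 77 windows from 250 bases before to 50 bases after the annotated start. The NRF1 core GCATGCGC, read on either strand, was in 15.6% of the member windows and in 2.71% of all 32851 windows. The YY1 motif AAGATGGC was in 14.3% of member windows and 2.75% of all windows, and the Ets motif CCGGAAGT in 5.19% and 3.89%. The 3 motifs share no letters at any match in the members. In all, 26 members held at least 1 of them and Uqcr11 alone held 2. A match is a run of letters and not a binding site, and the window starts depend on the annotation. The promoters of 4 members are shown, from RefSeq on build GRCm38.p6, because between them they hold each motif and because Ndufs3 and Ndufaf8 are among the members described most closely below. Capitals mark the motif.
Ndufs3, complex I, chr2:90904672-90904971, minus strand, Ets motif on its reverse strand: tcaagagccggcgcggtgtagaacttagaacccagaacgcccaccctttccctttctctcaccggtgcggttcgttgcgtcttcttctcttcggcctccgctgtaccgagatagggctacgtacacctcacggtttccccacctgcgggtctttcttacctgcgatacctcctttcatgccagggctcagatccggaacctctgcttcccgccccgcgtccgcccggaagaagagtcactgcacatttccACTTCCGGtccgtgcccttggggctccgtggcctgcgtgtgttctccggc
Ndufaf8, assembly of complex I, chr11:120098684-120098983, plus strand, YY1 motif: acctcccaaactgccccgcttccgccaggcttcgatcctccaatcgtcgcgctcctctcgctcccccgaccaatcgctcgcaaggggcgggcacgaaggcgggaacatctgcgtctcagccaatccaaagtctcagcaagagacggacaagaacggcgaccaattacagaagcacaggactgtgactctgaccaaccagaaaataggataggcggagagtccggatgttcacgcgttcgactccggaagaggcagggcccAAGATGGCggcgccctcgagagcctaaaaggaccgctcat
Uqcr11, complex III, chr10:80406772-80407071, minus strand, Ets and then NRF1 motif: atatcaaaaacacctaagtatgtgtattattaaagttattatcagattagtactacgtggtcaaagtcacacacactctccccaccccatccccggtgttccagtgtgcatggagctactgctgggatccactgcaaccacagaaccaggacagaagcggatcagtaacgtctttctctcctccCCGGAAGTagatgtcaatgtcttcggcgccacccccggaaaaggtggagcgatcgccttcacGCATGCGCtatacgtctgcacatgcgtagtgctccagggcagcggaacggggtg
Sdhb, complex II, chr4:140961021-140961320, plus strand, NRF1 motif: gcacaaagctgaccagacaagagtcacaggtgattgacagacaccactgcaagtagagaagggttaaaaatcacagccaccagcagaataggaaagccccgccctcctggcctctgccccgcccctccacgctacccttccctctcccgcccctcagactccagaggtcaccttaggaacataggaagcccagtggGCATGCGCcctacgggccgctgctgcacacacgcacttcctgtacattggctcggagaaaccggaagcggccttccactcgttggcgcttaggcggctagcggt
The 26 measured members with a motif had a median log2 fold change, CKO over Ctrl, of 0.03, and the 40 measured members with a window but no motif one of -0.01.

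No member of the chain passed the test between genotypes. Limma, with Benjamini-Hochberg adjustment over all 9593 genes, called 0 of 76 members at an adjusted p under 0.05, where 0.271% of all genes were called, and the lowest adjusted p of a member was 0.627. At an unadjusted p under 0.05 there were also 0 of 76 members, against 771 of 9593 genes. With the replicate number as a block, 0 members passed although 1.96% of all genes did, and 3 members (Sdhd, Cox7b and Ndufaf8) had an unadjusted p under 0.05. The thresholds of the study combine a change of 1.5-fold or more with a p under 0.05 before adjustment. They were met by 0 members lower in CKO cells, where 4.36% of all genes were, and by 0 members higher, where 3.05% were. With the replicate block these counts were 1 lower (Cox7b) and 1 higher (Sdhd). The 3 CKO arrays lay all below the 3 Ctrl arrays in 0 members, against 7.09% of all genes, and all above them in 2 members, Ndufs3 and Sdhd, which is 2.63% against 5.94% of all genes.

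The members were spread evenly to both sides of no difference. Their median log2 fold change was 0.01, with quartiles of -0.11 and 0.12, and 40 were positive and 36 negative. Of all genes 52.4% were positive. Over all genes the median was 0.02 and the quartiles were -0.22 and 0.23, so the members' quartiles lay closer together. This was not particular to the chain. The quartiles were 0.03 and 0.22 in cytoplasmic ribosomal proteins, -0.03 and 0.16 in proteasome subunits and 0.002 and 0.24 in mitochondrial ribosomal proteins. Above background on all 6 arrays were 72 of 76 members, against 7073 of 9593 genes, so the set of all genes held a larger share of dim ones. Without Ctrl replicate 1 the median of the members was -0.26 and that of all genes -0.04. Only Sdhd (0.72) and Cox7b (-0.63), of 76 members, were beyond 1.5-fold, which is 0.58 on the log2 scale, while 1330 of 9593 genes were. These medians do not bound each gene closely. The 95% confidence interval lay within 1.5-fold in either direction for 6 of 76 members (7.89%, against 5.99% of all genes), namely Atp5d, Atp5o, Ndufa8, Ndufa9, Sdhc and Uqcrc1, and with the replicate block for 33 (43.4%, against 22.6%). The share within 1.5-fold with the block was 52.6% in cytoplasmic ribosomal proteins, 45.5% in proteasome subunits and 29.2% in mitochondrial ribosomal proteins. For members whose interval reached beyond 1.5-fold in a fit, that fit does not exclude a change of that size.

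**Figure D1:**
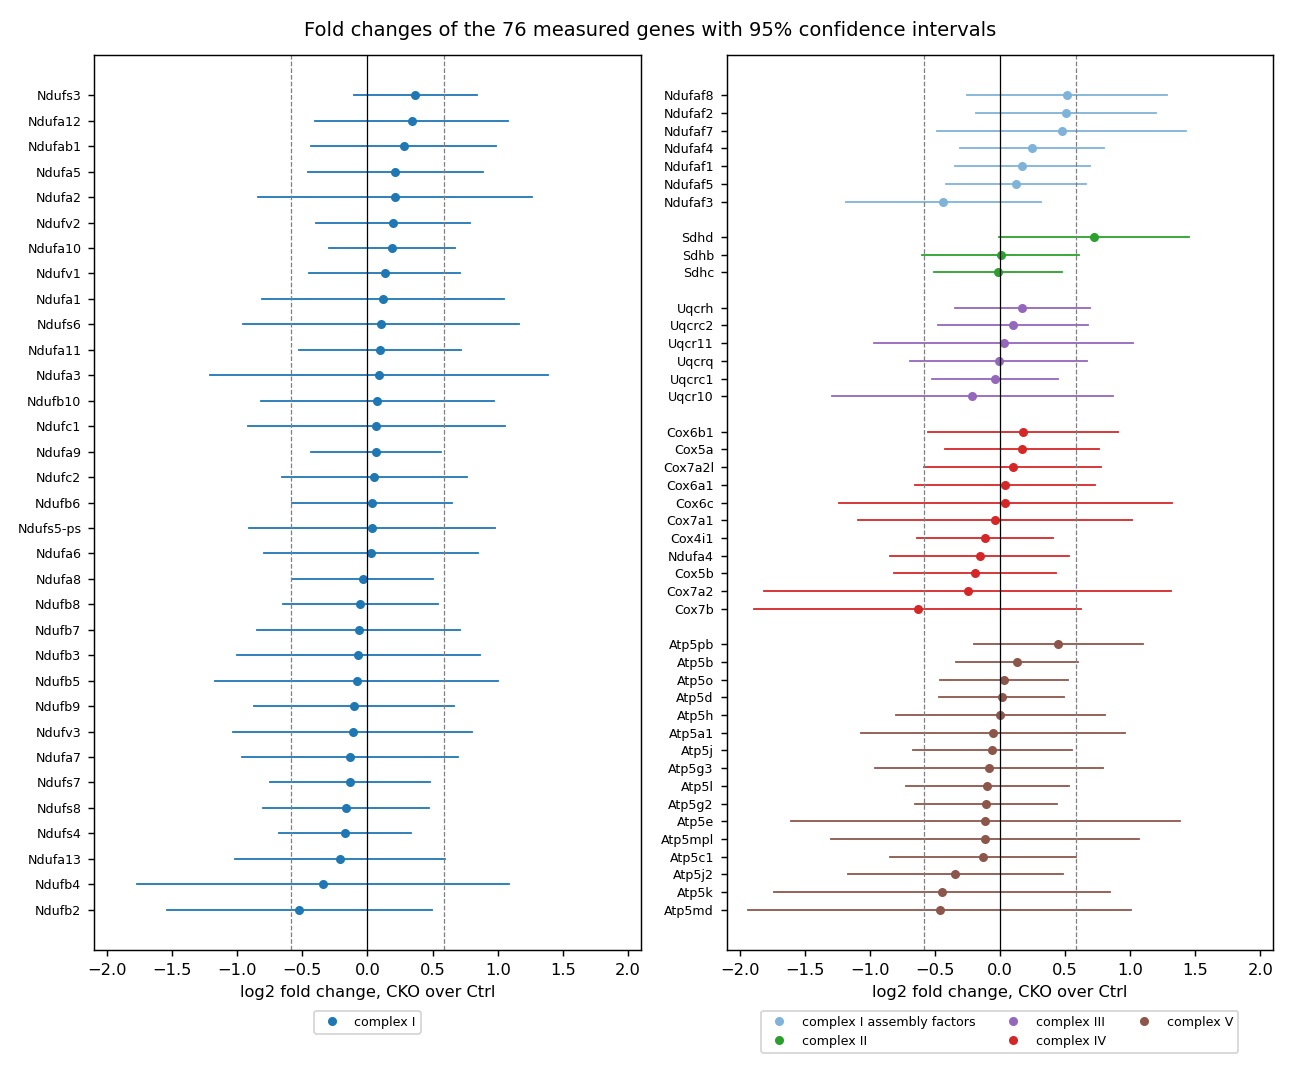
Log2 fold change, CKO over Ctrl, of the 76 measured genes (points) with limma's 95% confidence intervals (lines), 3 arrays per genotype, by complex. Dashed lines mark 1.5-fold. Every interval includes 0, and the point estimates run between Cox7b at -0.63 and Sdhd at 0.72.

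Complex I, the NADH dehydrogenase, had a median of 0.04, with 19 of 33 genes positive, where 52.4% of all genes were. Ndufs3, a core subunit of the arm that holds the iron-sulfur clusters, had 882, 940 and 842 in CKO cells, against 634, 707 and 727 in Ctrl cells. The lowest CKO array was above the highest Ctrl array, but the log2 fold change of 0.37 had an interval of -0.11 to 0.84 (adjusted p = 0.752, limma). Ndufv1, which binds NADH and the flavin, had 1276, 1217 and 1920 in CKO cells, against 1404, 1232 and 1312 in Ctrl cells. The groups overlapped and only CKO replicate 3 stood apart. Ndufa12, an accessory subunit, had 871, 1363 and 1105 in CKO cells, against 573, 1007 and 1122 in Ctrl cells, and the groups overlapped. Its log2 fold change was 0.34 (-0.40 to 1.08).

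At the low end of complex I were accessory subunits of the membrane arm with dim probes. Ndufb2 had 11.7, 14.2 and 22.2 in CKO cells, against 15.0, 42.9 and 17.0 in Ctrl cells, so that pair 2 gave most of its log2 fold change of -0.52 (-1.54 to 0.49). Ndufb4 had 7.88, 16 and 18.7 in CKO cells, against 6.18, 27.2 and 28.5 in Ctrl cells, where Ctrl replicate 1 was at background. It was higher in CKO in replicate 1 and lower in replicates 2 and 3. Of the core subunits, Ndufs1 gave no value above background on any array. Every respiring cell uses it, so its dim probe does not show that the transcript is absent.

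The assembly factors of complex I, which help to build it and are not part of the finished enzyme, had the highest median of the groups, 0.25. Of the 7, 6 were positive, where 52.4% of all genes were. In all 3 replicate pairs 5 of the 7 were positive, where 1866 of 9593 genes were. Ndufaf8, a partner of Ndufaf5 in the early steps, had 149, 258 and 251 in CKO cells, against 104, 197 and 161 in Ctrl cells. The groups overlapped but CKO was higher within each pair, and the log2 fold change was 0.51 (-0.25 to 1.28, adjusted p = 0.828, limma). With the replicate block the interval was 0.08 to 0.95 and limma's adjusted p 0.238. With an array left out the log2 fold change ran between 0.26 (without Ctrl replicate 1) and 0.77 (without CKO replicate 1). Ndufaf2 had 178, 190 and 212 in CKO cells, against 94.6, 133 and 197 in Ctrl cells, likewise higher in CKO in every pair (0.51, -0.18 to 1.20). Ndufaf7, a methyltransferase, had 166, 70.6 and 114 in CKO cells, against 130, 65.8 and 57.9 in Ctrl cells. Ndufaf5 was close to even at 0.12, and Ndufaf3, with 22.6, 22.5 and 33.0 in CKO cells, against 23.1, 37.8 and 47.4 in Ctrl cells, went the other way (-0.43, -1.18 to 0.31).

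Complex II, succinate dehydrogenase, also serves the tricarboxylic acid cycle. Its iron-sulfur subunit Sdhb, whose promoter is printed above, had 770, 565 and 825 in CKO cells, against 562, 763 and 825 in Ctrl cells. The membrane anchor Sdhc had 586, 610 and 620 in CKO cells, against 597, 543 and 700 in Ctrl cells. Both overlapped fully and had log2 fold changes of 0.01 (-0.60 to 0.61) and -0.01 (-0.50 to 0.48). The other anchor, Sdhd, had 32.2, 36.6 and 64.9 in CKO cells, against 22.4, 24.2 and 31.4 in Ctrl cells. All CKO arrays were above all Ctrl arrays, by a narrow gap, and the 1.65-fold difference (95% confidence interval 0.994 to 2.73) was the largest of the members (adjusted p = 0.627, limma). Without CKO replicate 3, the highest array, its log2 fold change was 0.41. With the replicate block its log2 interval was 0.25 to 1.20 and limma's adjusted p 0.141. The flavoprotein Sdha was not above background on any array, and since respiring cells use it too, its probe says no more of the transcript than that of Ndufs1.

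In complex III, the cytochrome bc1 complex, the 6 measured genes had a median of 0.01. The core protein Uqcrc1 had 2289, 2052 and 1996 in CKO cells, against 2345, 2232 and 1947 in Ctrl cells, 1 of the most even members on these arrays, at -0.04 (-0.53 to 0.45). Uqcrc2, the other core protein, had a log2 fold change of 0.10 and Uqcrh, the hinge protein that helps cytochrome c to dock, one of 0.17 (-0.35 to 0.69). The small subunit Uqcr10 had 2644, 4102 and 6224 in CKO cells, against 2455, 6056 and 7043 in Ctrl cells. In either genotype replicates 1 and 3 were further apart than CKO and Ctrl of any replicate. The Rieske iron-sulfur protein Uqcrfs1 was above background on 0 arrays on either of its 2 probes, which likewise does not show that this core subunit is absent.

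Complex IV, cytochrome c oxidase, had a median of -0.04. Cox4i1 and Cox5a join its catalytic core early in assembly. Cox4i1 had 3932, 4676 and 4726 in CKO cells, against 4033, 5462 and 5016 in Ctrl cells. Cox5a had 2639, 3918 and 3299 in CKO cells, against 2361, 3409 and 2987 in Ctrl cells, higher in CKO within each pair with a log2 fold change of 0.17 (-0.42 to 0.76). Cox6b1, on the intermembrane side, was at 0.18. Cox7b had 7.52, 15.8 and 23.3 in CKO cells, against 10.8, 26.7 and 35.8 in Ctrl cells, where CKO replicate 1 was at its background level. It was lower in CKO in each pair but the groups overlapped, with a log2 fold change of -0.63 (-1.89 to 0.63, adjusted p = 0.903, limma). With the replicate block the interval was -1.07 to -0.19 and limma's adjusted p 0.157. With an array left out the log2 fold change ran between -1.14 (without Ctrl replicate 1) and -0.18 (without CKO replicate 1).

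Several subunits of complex IV come in tissue isoforms. The widely used Cox4i1 and Cox6a1 were above background on all 6 arrays. Cox4i2, known from lung, and the heart and muscle forms Cox6a2 and Cox8b were above background on 0 arrays in either genotype. The same held for Cox6b2, Cox7b2 and Cox8c. Each of these genes had 1 probe, except Cox6b2 with 2, and a probe at background does not show that a transcript is absent. Cox8a was not analysed here. Of the Cox7a set, the muscle form Cox7a1 was near background, at 10.5, 11.3 and 18.7 in CKO cells, against 7.80, 26.1 and 11.9 in Ctrl cells. Cox7a2 had 34.9, 55.5 and 106 in CKO cells, against 23.9, 126 and 113 in Ctrl cells. Cox7a2l had 678, 450 and 482 in CKO cells, against 666, 485 and 372 in Ctrl cells. None of the Cox7a genes separated the genotypes, and their log2 fold changes were -0.04 (Cox7a1), -0.25 (Cox7a2) and 0.10 (Cox7a2l).

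In complex V, the ATP synthase, 11 of 16 genes were negative, where 4563 of 9593 genes were, and the median was -0.09. The catalytic beta subunit Atp5b had 15688, 16509 and 17166 in CKO cells, against 15022, 14068 and 16015 in Ctrl cells. CKO was higher in each pair and the groups overlapped, with a 1.10-fold difference (0.791 to 1.52). With the replicate block its log2 interval was -0.30 to 0.56. The alpha subunit Atp5a1 had 120, 186 and 311 in CKO cells, against 117, 250 and 265 in Ctrl cells, and the gamma subunit Atp5c1, the shaft of the rotor, was at -0.13 (-0.84 to 0.59). Of the genes for the membrane ring of c subunits, Atp5g3 was at -0.08 and Atp5g2 at -0.11, and Atp5g1 was not analysed here. Atp5pb, the b subunit of the stator, had 705, 553 and 630 in CKO cells, against 596, 324 and 500 in Ctrl cells, higher in every pair (0.45, -0.20 to 1.10). The lowest values were those of Atp5k and Atp5md, small subunits of the membrane part at background on 2 and 3 of the 6 arrays. Atp5md had 7.52, 21.7 and 8.90 in CKO cells, against 6.18, 19.3 and 31.9 in Ctrl cells. Both arrays of replicate 1 and CKO replicate 3 were at background, so pair 1 gave no measured difference. Atp5md was slightly higher in CKO in pair 2 and lower in pair 3.

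**Figure D2:**
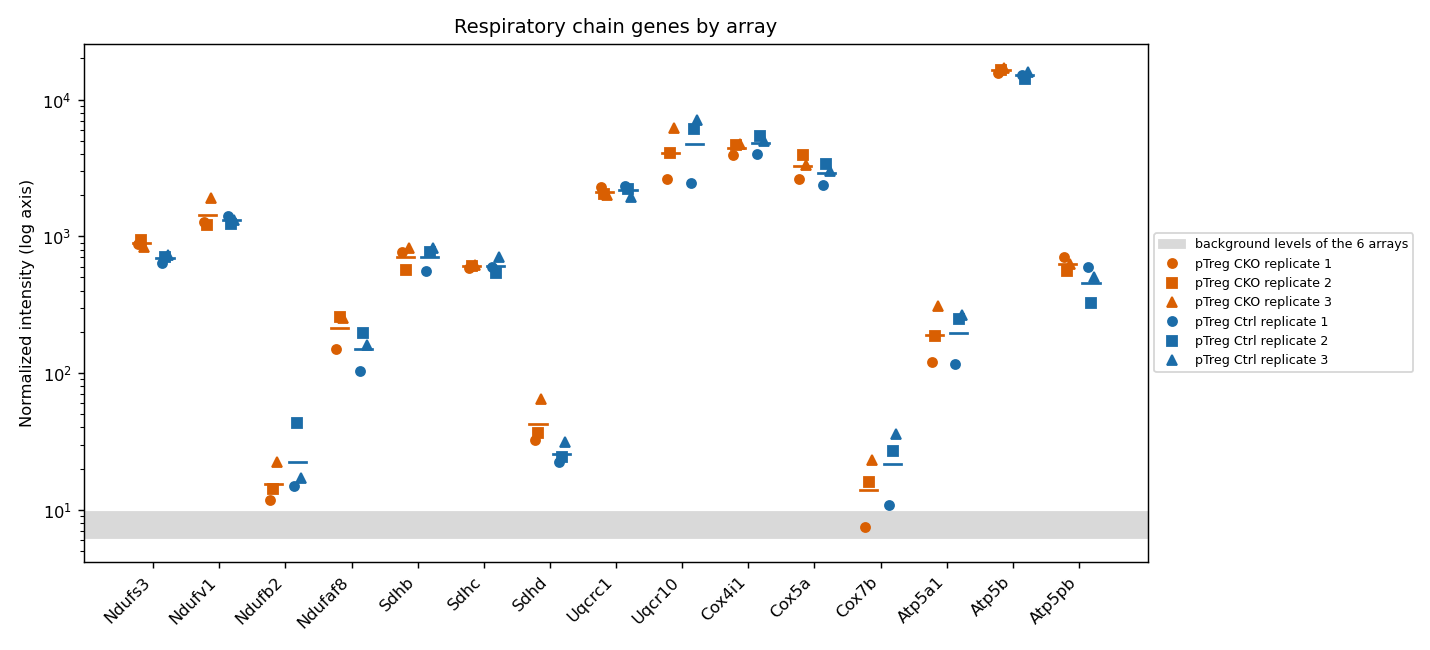
Normalized intensity on a log axis of 15 respiratory chain genes on each array, CKO (orange) left of Ctrl (blue), with a symbol for each replicate and a line at the mean of log2 values. A grey band marks background, which ranged over 6.18 to 9.55. The groups are apart in Ndufs3 and Sdhd among the genes drawn, and Cox7b and Ndufb2 lie near the band.

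Genes with more than 1 usable probe, 24 of the members, showed how far the choice of probe matters. The 2 probes of Cox5b gave log2 fold changes of -0.19 and 0.39, with the brighter the negative one, and those of Ndufa8 gave -0.04 and 0.39. The 3 probes of Ndufab1, the mitochondrial acyl carrier protein, gave 0.28, 0.51 and 0.40, and the 3 of Atp5pb 0.45, 0.36 and 0.48. Ndufs4 had 4, at -0.17, -0.39, -0.29 and 0.07. In Cox5b, Ndufa8 and Ndufs4 the sign was therefore that of the probe used. The sign also differed between usable probes of Atp5j, Atp5mpl, Ndufa3, Ndufb6, Ndufb10, Ndufc1, Ndufv3, Sdhb and Uqcr10. The genes given with values here were chosen after their probes were seen.

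The median over the members did not have the same sign in all replicate pairs. It was 0.16 in pair 1, -0.14 in pair 2 and -0.01 in pair 3, while all genes had 0.07, 0.04 and -0.07. For complex V the values were 0.17, -0.25 and -0.04 and for complex IV 0.16, -0.22 and -0.10. Complex I had 0.17, -0.02 and -0.02. The assembly factors were positive at 0.30, 0.28 and 0.16. In all, 14 of 76 members were higher in CKO in 3 of 3 pairs and 7 lower, against 1866 and 1742 of 9593 genes. The share higher was thus close to that of all genes, and the share lower was smaller.

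**Figure D3:**
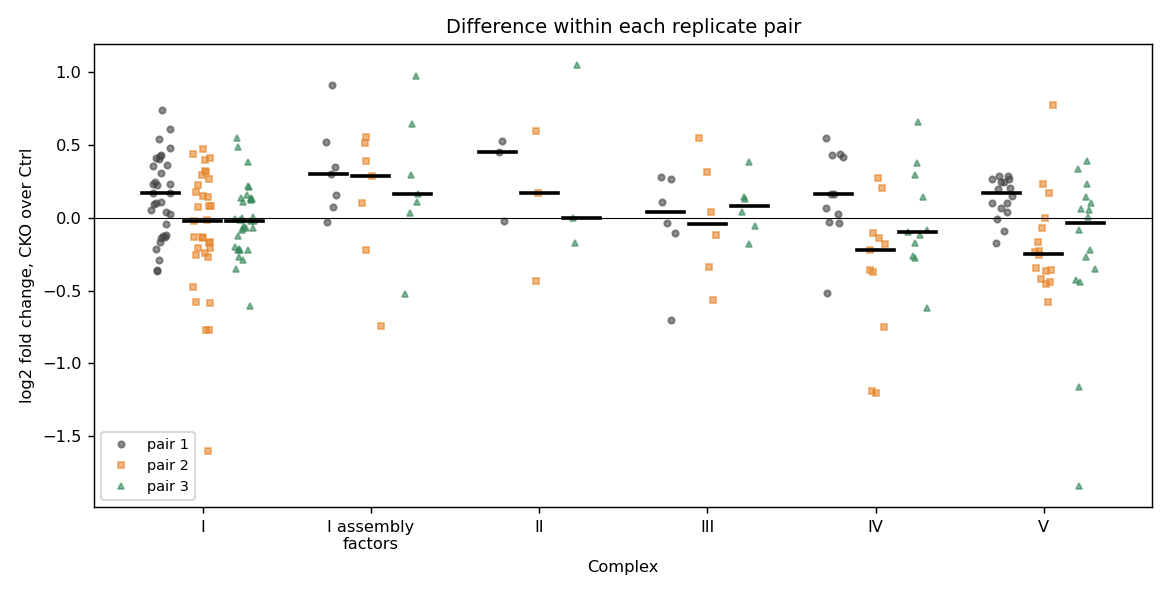
Log2 fold change, CKO over Ctrl, of each measured gene (points) within replicate pairs 1, 2 and 3, by complex, with the median as a bar. In complexes IV and V the medians of pair 1 (0.16 and 0.17) lie above 0 and those of pair 2 (-0.22 and -0.25) below.

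A larger difference among the arrays was that between slides. Replicate 1 of both genotypes lay on slide 1 and replicates 2 and 3 on slide 2, and this comparison was chosen after the values were seen. With genotype in the same fit, 69 of 76 members were lower on slide 1, with a median log2 difference of -0.57 for slide 1 minus slide 2, where all genes had -0.09 and 5528 of 9593 were lower. Under median scaling of the arrays in place of quantile normalization these medians were -0.25 for the members and 0.29 for all genes. At an adjusted p under 0.05 there were 0 members and 0% of all genes in limma. At an unadjusted p under 0.05, 37 members (48.7%) were lower on slide 1, where 12.8% of all genes were, and 2 (Ndufaf7 and Cox7a2l) were higher, where 5.51% of all genes were. Slide, preparation and whatever the letters P+I in the labels of replicates 2 and 3 stand for cannot be told apart, and with 2 arrays against 4 their number limits the precision.

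The 5 members with the largest slide differences were Atp5e, Cox7a2 (-1.73 on the log2 scale), Ndufb4 (-1.65), Ndufa3 and Cox6c. Ndufa3, an accessory subunit of complex I, had 650 and 506 on slide 1 in CKO and Ctrl cells, against 1692 and 1601 in CKO cells and 1719 and 1685 in Ctrl cells on slide 2, or 2.92-fold higher on slide 2. No array of slide 1 reached any of slide 2. Cox6c had 495 and 507 on slide 1, against 1262 and 1701 in CKO cells and 1391 and 1390 in Ctrl cells on slide 2, a 2.85-fold difference with the same gap. Atp5e, the epsilon subunit of the ATP synthase, had 24.2 and 22.6 on slide 1, against 67.5 and 80.2 in CKO cells and 67.7 and 108 in Ctrl cells on slide 2. The log2 differences were -1.54, -1.51 and -1.76, each with an adjusted p of 0.133 in limma. By contrast Atp5b, Ndufv1 and Ndufs3 differed by -0.05, -0.06 and -0.09 between slides.

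By complex, the median slide difference was -0.66 in complex I, -0.16 in complex II, -0.22 in complex III, -0.62 in complex IV and -0.66 in complex V, and -0.23 in the assembly factors. Within complex I, the 27 accessory subunits had a median of -0.69 and the 5 measured core subunits (Ndufs3, Ndufs7, Ndufs8, Ndufv1 and Ndufv2) one of -0.10, a split made after the values were seen. All 33 genes of complex I were lower on slide 1. Median intensity over the members was 884, 1200 and 1395 in CKO replicates 1, 2 and 3 and 675, 1231 and 1367 in the Ctrl replicates, so that within slide 1 the CKO array was the higher. The summed myeloid markers, mostly S100a8 and S100a9, had their lowest values in replicate 2. Lyz2 and Cd14 were highest in replicate 1, on slide 1, in both genotypes. Lyz2 had 248, 60.3 and 132 in CKO cells, against 667, 29.1 and 159 in Ctrl cells. The part of these transcripts in the slide difference was not tested.

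**Figure D4:**
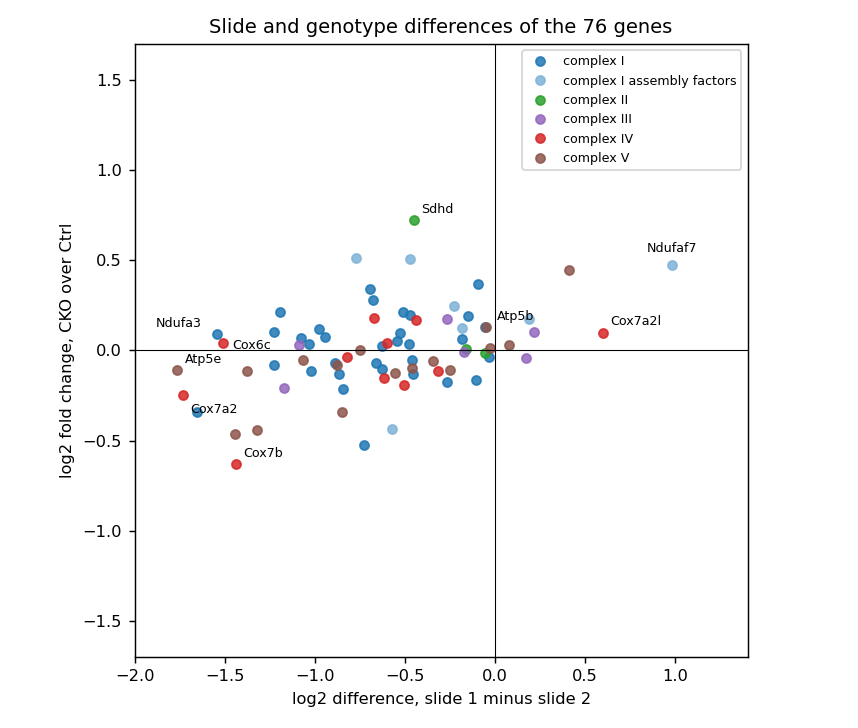
For each of the 76 genes, log2 difference between slides (horizontal, slide 1 minus slide 2) against log2 fold change between genotypes (vertical, CKO over Ctrl), coloured by complex on equal scales. The points spread to -1.76 along the slide axis and lie between -0.63 and 0.72 along the genotype axis, with 69 of 76 left of 0.

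Other genes of oxidative metabolism, from lists written with earlier results of these data known, were set beside the chain. The electron carriers and other enzymes that feed ubiquinone (16 measured) had a median log2 fold change of 0.17. The 32 assembly factors other than the Ndufaf genes had 0.16, and 15 genes of the tricarboxylic acid cycle and pyruvate dehydrogenase 0.09. The medians were 0.09 in 19 genes of mitochondrial biogenesis, 0.20 in 27 of protein import and folding and 0.15 in 72 mitochondrial ribosomal proteins. Of those 72, 54 were positive, where 52.4% of all genes were. The cytoplasmic ribosomal proteins (57) were at 0.11 and proteasome subunits (33) at 0.10. Each list had 0 genes at an adjusted p under 0.05, with and without the block. Genes for carriers of ATP and phosphate (8) and for uncoupling and superoxide removal (9) had medians of 0.08 and 0.08.

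At the study's thresholds 2 of the 288 measured genes of these lists (0.694%) were higher in CKO cells, where 3.05% of all genes were, and 0 lower, where 4.36% were. Tfb1m, which methylates mitochondrial ribosomal RNA, had 61.4, 84.5 and 101 in CKO cells, against 29.9, 46.3 and 55.5 in Ctrl cells. The groups were apart, and the log2 fold change was 0.92 (0.20 to 1.65, adjusted p = 0.416, limma, and 0.0613 with the block). Lrpprc, which stabilizes messenger RNAs of mitochondrial DNA, had 235, 202 and 206 in CKO cells, against 155, 117 and 149 in Ctrl cells, a log2 fold change of 0.62 (0.10 to 1.13, adjusted p = 0.462, limma). In the tricarboxylic acid cycle Suclg2, a subunit of succinyl-CoA ligase, had 59.0, 75.1 and 71.9 in CKO cells, against 53.7, 38.3 and 46.2 in Ctrl cells, just under 1.5-fold. Genes encoded in mitochondrial DNA were not analysed here.

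**Figure D5:**
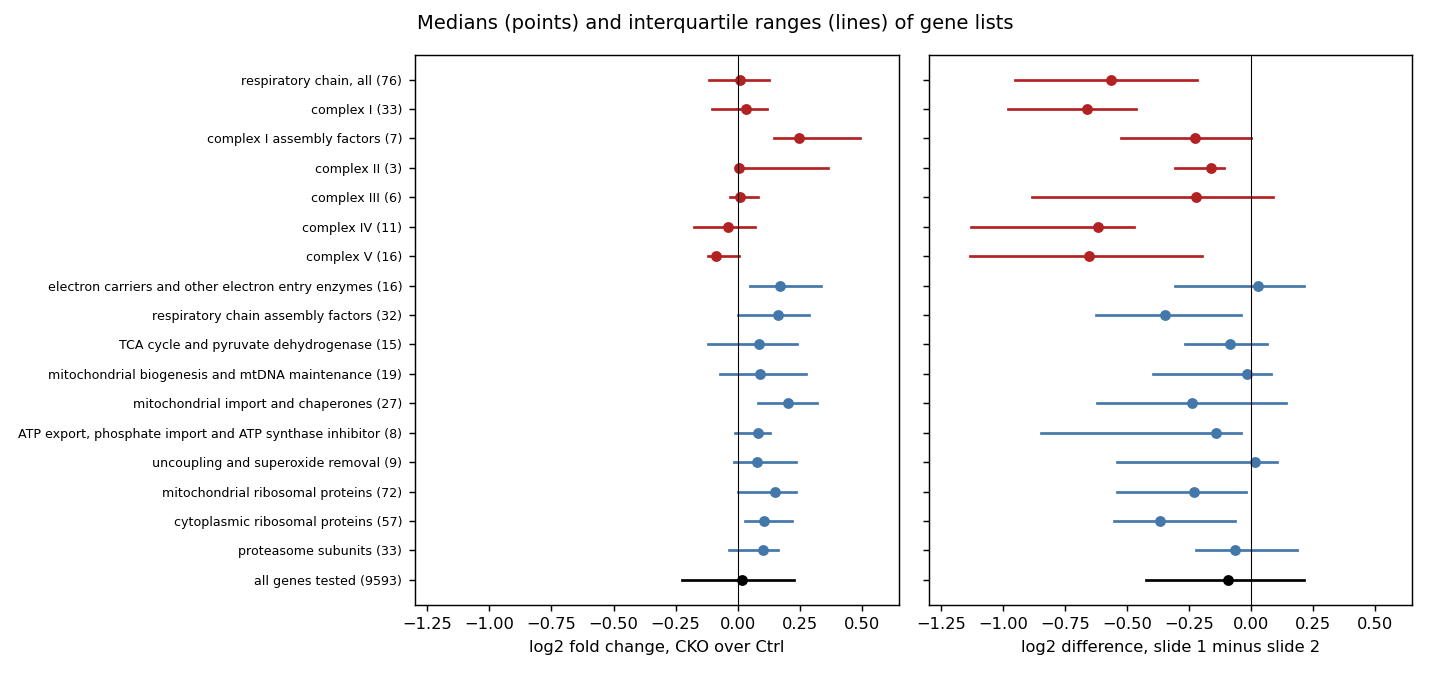
Median (point) and interquartile range (line) of log2 differences in the respiratory chain and its complexes (red), other gene lists (blue) and all genes tested (black), CKO over Ctrl on the left and slide 1 minus slide 2 on the right, with the number of measured genes in brackets. The chain lies at 0.01 between genotypes and at -0.57 between slides, where all genes lie at 0.02 and -0.09.

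The other lists had median slide differences nearer to 0 than the chain had. The median was -0.23 in mitochondrial ribosomal proteins, -0.37 in cytoplasmic ribosomal proteins, -0.35 in the 32 other assembly factors, -0.06 in proteasome subunits and -0.08 in the tricarboxylic acid cycle. No test of one list against another was made.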

How the data were processed

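RNA of 3 CKO and 3 Ctrl pTreg samples was measured with Illumina MouseWG 6v2 arrays. Deposited values are linear intensity, exported with Genome Studio and then quantile normalized by the authors. Some lie below 0, as after background subtraction. The number of arrays limits the precision. The 6 columns were quantile normalized together, because the slides had been normalized apart, raised to each array's background, and taken to log2. This compresses differences of dim probes. Where 2 arrays were both at background, the difference between them is that of their background levels. Of the probes, 34885 had 1 gene symbol, 18 several and 10378 none, and 34807 were matched to RefSeq. The brightest probe of a gene was used if above background on at least 2 arrays.

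For genotypes, lmFit and eBayes of limma 3.58.1 (R 4.3.3) were run without a block over 9593 genes. The steps were tested on simulated data with 200 changed genes. The simulated noise was independent for each gene and array, so differences between slides and likeness within pairs were not part of that test. The labels give CKO and Ctrl of replicates 2 and 3 a shared day and those of replicate 1 share a slide. Deviations from the group means correlated within pairs at 0.51, 0.49 and 0.56 over all genes. Over the members the correlations were 0.80, 0.30 and 0.38 in pairs 1, 2 and 3. Samples were paired by replicate number. What the samples of a pair share, a slide, a day or recipient mice, cannot be told apart by this. The methods call the arrays biological replicates and do not say how many mice each holds.

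Members and lists were chosen with earlier results of these data known. Members named are core subunits, the 2 lowest and 2 highest fold changes per complex, members meeting a threshold, isoform sets, and from other lists genes with the smallest p. Those described for their slide difference or their probes were picked with the values in view. The alternatives were other normalizations, backgrounds, filters and probe choices, blocks by replicate and slide, slide 2 alone and each array left out.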

Additional observations from a re-analysis of the deposited data

How the results depend on the processing

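Under 17 alternatives, 1 of them (replicates 1 and 3 only) chosen after seeing the data, 0 members passed an adjusted p of 0.05 in limma, with at most 3 at an unadjusted p under 0.05, while the count over all genes ran between 0 and 188. The count lower in CKO at the study's thresholds was 1 with the replicate block or the slide as a block (Cox7b), 1 on slide 2 only (Ndufb4), and between 0 and 3 with an array left out, the 3 (Atp5k, Ndufaf3 and Ndufb4) without Ctrl replicate 1. The count higher was 1 (Sdhd) with the deposited values, with no filter, with genes above background on all 6 arrays, with the 99th percentile as background, with the mean over probes, and with the replicate block or the slide as a block. It lay between 0 and 2 with an array left out, at 1 (Sdhd) without CKO replicate 1 and at 2 (Ndufaf2 and Sdhd) without Ctrl replicate 3. The median log2 fold change of the members lay between -0.26 (without Ctrl replicate 1) and 0.15 with an array left out, against 0.01. By complex it then lay between -0.28 and 0.23 in complex I, -0.42 and 0.18 in complex IV and -0.32 and 0.07 in complex V, each lowest without Ctrl replicate 1 and of either sign, and between 0.18 and 0.33 in the assembly factors of complex I. The slide difference of -0.57 was -0.25 under median scaling, where all genes lay at 0.29, and lay between -0.72 (without CKO replicate 1) and -0.45 (without Ctrl replicate 1) with an array left out. Of 34 members followed, 14 kept their sign under every alternative, and 55 of 573 values had another sign. The replicate block changed no call of a member at an adjusted p of 0.05 in limma. Over all 9593 genes the calls went from 26 without the block to 188 with it. The cause of these shifts was not tested. Dim probes, such as those of Cox7b, Ndufb4, Atp5k and Atp5md, are limited by background.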
